A study of Mus musculus with 4 samples.

Results

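The endoplasmic reticulum (ER) chaperone genes described here are Hspa5, Hsp90b1, Calr, Dnajb9, Dnajc3, Pdia4, Pdia6, Creld2, Herpud1 and Xbp1. They were taken by name, with every probe that the array held for them, and all 10 were measured, out of 18454 genes in all. Their 20 probes were all among the 27729 kept of 41174. Herpud1, a membrane protein of ER-associated degradation, and Xbp1, a transcription factor, are not chaperones themselves but belong to the same stress response. RNA of cultured mouse spermatogonial stem cells, which sustain sperm production, was hybridised to 4 two-colour Agilent arrays. On every array the Cy3 channel held cells grown without FGF2 and with SU5402, an inhibitor of the FGF receptor kinase, for 12 h, which the labels call -F+S. The Cy5 channel held cells in normal culture, and the design names 4 biological replicates of each condition. Cells of both groups came from C57/BL6 x DBA/2 F1 mice, with the age given as day 5. The normal medium was serum-free, mostly MEMa, and held GDNF at 40 ng/ml, FGF2 at 5 ng/ml and further factors, so the -F+S cultures differed from it by the lack of FGF2 and the presence of SU5402 together. Dyes were not swapped, so a dye effect particular to a probe and the effect of -F+S cannot be told apart. The labels do not say whether feeder cells or other testis cells were in the cultures.

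Proteins that are secreted or sit in membranes fold inside the ER. BiP, the product of Hspa5, binds unfolded chains there together with J-domain co-chaperones, calreticulin and calnexin hold chains by their sugars, and protein disulfide isomerases form and shuffle disulfide bonds. When unfolded chains build up, the sensors IRE1, PERK and ATF6 start the unfolded protein response. IRE1 splices the Xbp1 message, and XBP1 and ATF6 then raise transcription of chaperones and of degradation factors, while PERK lowers protein synthesis and raises ATF4. A known target sequence of ATF6 in such promoters is the ER stress response element (ERSE), and Herpud1 is known for a variant of it, ERSE-II.

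The promoters of 7 members hold one of these elements, and the stretch around each match is shown here. Only known elements of the response were searched for, so other shared sequence features were not looked at. Letters are from RefSeq (GRCm38.p6), upstream of the annotated start, on the strand of the gene and 5′ to 3′, with the match in capitals. Coordinates are chr2:34772010-34772058 (plus strand) for Hspa5, chr10:86705518-86705671 (minus strand) for Hsp90b1 and chr8:84847060-84847108 (minus strand) for Calr. They are chr14:118937812-118937860 for Dnajc3, chr12:17266476-17266524 for Pdia6, chr15:88819505-88819553 for Creld2 and chr8:94386362-94386402 for Herpud1, all on the plus strand.
Hspa5: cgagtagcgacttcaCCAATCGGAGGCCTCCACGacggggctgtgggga
Hsp90b1: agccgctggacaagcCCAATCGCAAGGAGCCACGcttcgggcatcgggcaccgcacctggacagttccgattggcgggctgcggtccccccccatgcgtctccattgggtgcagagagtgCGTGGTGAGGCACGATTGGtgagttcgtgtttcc
Calr: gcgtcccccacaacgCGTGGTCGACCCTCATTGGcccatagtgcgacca
Dnajc3: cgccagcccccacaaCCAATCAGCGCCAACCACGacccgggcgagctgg
Pdia6: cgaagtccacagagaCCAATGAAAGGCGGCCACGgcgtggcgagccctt
Creld2: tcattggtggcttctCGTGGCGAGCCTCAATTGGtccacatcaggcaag
Herpud1: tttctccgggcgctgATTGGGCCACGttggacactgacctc
The ERSE was searched as CCAAT, any 9 bases, then CCACG, and ERSE-II as ATTGG, any 1 base, then CCACG, on both strands. In Calr, in Creld2 and in the match of Hsp90b1 nearer to the start, the ERSE runs on the opposite strand and so reads CGTGG first. Between 46 bases (Hspa5) and 193 bases (the farther match of Hsp90b1) lie between an ERSE and the start, and 41 bases lie between the ERSE-II of Herpud1 and its start. Of 32851 promoter windows of the same length, 39 (0.119%) held an ERSE, against 6 of the 10 members, and 12 (0.0365%) held an ERSE-II, against 1 member. The members were chosen as genes of this response, and these elements are known from promoters of such genes. The contrast with all windows was therefore set by that choice and is not a finding about the members. The core of a further element of the response, TGACGTGG, was in 222 windows (0.676%) and in no member. The searches are not independent, since CCAAT is ATTGG read on the other strand, and the core ends in CGTGG, which is CCACG read on the other strand. Xbp1, Dnajb9 and Pdia4 held none of the 3 in their windows, which says only that these letters are not there.

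Across the 4 arrays, 6 members were higher in -F+S cultures than in normal cultures, 1 was lower and 3 did not pass the test. Calls are those of limma with Benjamini-Hochberg adjustment over all 18454 genes at an adjusted p under 0.05. By the same rule 37.5% of all genes were called higher and 30.9% lower, 68.4% together, so a call was common on these arrays. The median log2 ratio of -F+S over normal culture was 0.32 over the members and 0.023 over all genes tested. On single arrays the members' median ratio was 0.30, 0.36, 0.088 and 0.50 for replicates 1 to 4, and 8, 8, 7 and 9 of the 10 members had a ratio above 0. The median over members of the SD between arrays was 0.18, against 0.15 over all genes. The members fall in order from Herpud1, the most raised, through Dnajc3 and Pdia6 to a group of smaller ratios, with Creld2 alone below 0. Markers of other testis cells moved on the same arrays, with median log2 ratios of 2.00 for Sertoli cells and 1.43 for fibroblasts and feeder cells, against -0.33 for spermatogonia. In bulk samples fewer cells of a type and less RNA per cell cannot be told apart, and the part of these cell types in the members' ratios was not tested.

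**Figure D1:**
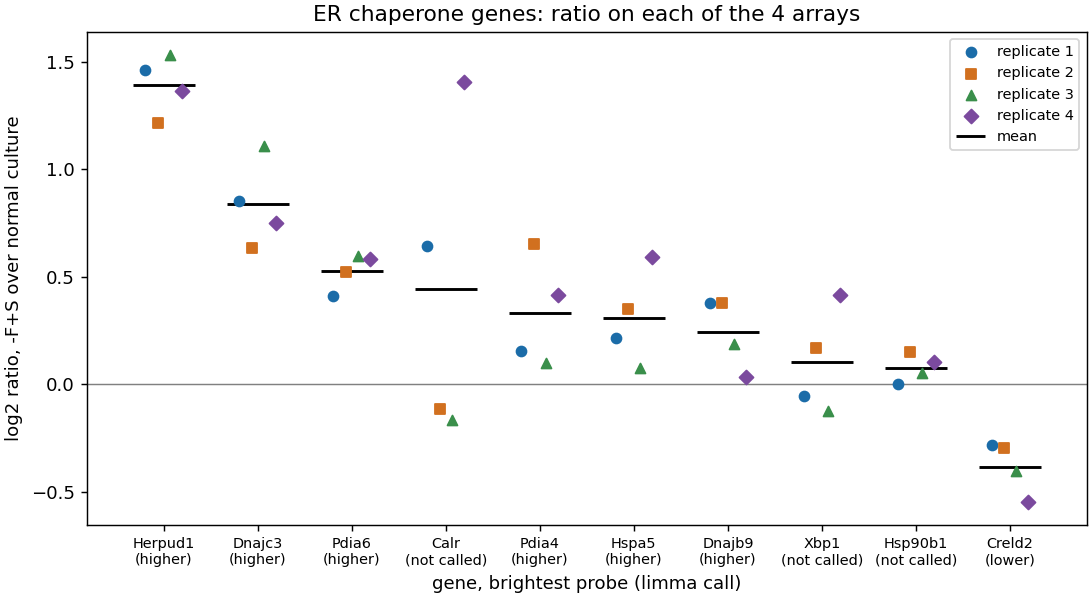
Log2 ratio of -F+S over normal culture (vertical axis) for the brightest probe of each of the 10 genes (horizontal axis), with a point for each of the 4 arrays and a bar at their mean. Herpud1 lies at 1.39 with all 4 arrays between 1.22 and 1.53, Creld2 is the only gene with all 4 arrays below 0, and the 4 arrays of Calr spread from -0.16 to 1.40.

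Hspa5 encodes BiP, the Hsp70 chaperone of the ER, and has a single probe (chromosome 2, 34631630 to 34631689 in mm9, the build of all probe positions here). Its normalized intensity was 89909, 98305, 86095 and 94226 in -F+S replicates 1 to 4, against 77355, 77183, 81577 and 62433 in normal cultures. Every -F+S culture was above every normal culture, and the lowest value of all was normal replicate 4. The log2 ratio was 0.31 ± 0.091 (SE, n = 4 arrays), which is 1.24-fold, with an adjusted p of 0.0131 in limma. Array 3 had a ratio of 0.078 and array 4 one of 0.59. The call was lost without replicate 4 (log2 0.21, adjusted p 0.0518), and centring on the median instead of loess gave -0.071.

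Hsp90b1 encodes GRP94, the Hsp90 chaperone of the ER, which folds integrins and Toll-like receptors among others. Its brighter probe (chromosome 10, 86153770 to 86153829) read 134351, 149110.1, 144033 and 139917 in -F+S cultures, against 134245, 134528, 138730 and 130244 in normal cultures. The groups overlapped, and the 4 ratios lay between 0.0011 and 0.15. The log2 ratio of 0.077 ± 0.067 (SE, n = 4 arrays) did not pass the test (limma adjusted p 0.331, 95% interval -0.075 to 0.23). A dimmer probe 7559 genomic bases farther upstream (86161329 to 86161388) gave 132855, 117582, 119723 and 104929 in -F+S cultures, against 77483, 80907, 81669 and 85899 in normal cultures. On that probe the groups did not overlap, and the log2 ratio was 0.54 ± 0.089 (SE, n = 4 arrays; adjusted p 0.000544 over all kept probes in limma). The brighter probe was below the other on all 4 arrays, by 0.19 to 0.78 on the log2 scale. The mean of both probes was 0.31 and was called higher (adjusted p 0.00227), as was the brighter probe in the scanner's own LogRatio (0.20, adjusted p 0.0387). Under median centring, however, the dimmer probe fell to 0.12 and lost its call (limma adjusted p 0.569 over all kept probes). Hsp90b1, read on its brighter probe, was then called lower (-0.42, limma adjusted p 0.0257).

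Calr encodes calreticulin, a calcium-binding lectin chaperone, and it was the least even of the members between arrays. Its brighter probe (chromosome 8, 87366192 to 87366251) read 47768, 45362, 39309.6 and 58346 in -F+S cultures, against 30563.5, 49050.4, 44071 and 22049 in normal cultures. Arrays 1 and 4 were higher in -F+S cultures, while arrays 2 and 3 were slightly lower there, and the normal cultures spread more than 2-fold among themselves. The mean log2 ratio was 0.44 ± 0.22 (SE, n = 4 arrays), with an SD between arrays of 0.74, and it did not pass the test (limma adjusted p 0.106). Without replicate 2 it was 0.63 (adjusted p 0.0443) and without replicate 3 it was 0.65 (adjusted p 0.0482), so leaving out either array gave a call. Without replicate 4 it was 0.12 (adjusted p 0.51), and under median centring 0.21, neither called. It was called higher with the mean of both probes (0.82, adjusted p 5.59e-05) and in the median-centred processed signals (0.39, adjusted p 0.0161). Of 14 settings, the reported one included, 5 called it higher. The dimmer probe, 2337 bases upstream (87368529 to 87368588), read 6192, 5647, 7786 and 5583 in -F+S cultures, against 2590.5, 2018, 3209 and 3252 in normal cultures. There every -F+S culture was above every normal culture, with a log2 ratio of 1.20 ± 0.11 (SE, n = 4 arrays; adjusted p 1.24e-05). The difference between the probes, brighter minus dimmer, ranged from -1.60 to 0.62 over the arrays, so their order was not the same on all 4.

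Dnajc3 encodes the J-domain co-chaperone P58IPK, which helps BiP and is also known to restrain PERK. It was higher in -F+S cultures on all of its 4 probes. The brightest (chromosome 14, 119370014 to 119371633, which covers 1620 genomic bases and so crosses an intron) read 12181, 10154, 12980 and 11202 in -F+S cultures, against 6750.5, 6535, 6028 and 6657.5 in normal cultures. The groups lay far apart, and every array agreed in direction, from 0.64 to 1.11 on the log2 scale. In log2 terms the ratio was 0.84 ± 0.087 (SE, n = 4 arrays), a 1.79-fold difference with an adjusted p of 2.51e-05 in limma, and it lay above the ratios of 85.4% of all genes. The other 3 probes gave 0.43, 0.97 and 0.41 in order of brightness, each called higher and each with -F+S values above all normal values. The 4 probes form 2 pairs by size: the brightest was above the second by 0.29 to 0.55 on every array, while its difference from the third was -0.32 to 0.00082. The third covers 1505 genomic bases and so crosses an intron too. The second and the dimmest cover 60 bases each and lie nearest the 3′ end. What sets the pairs apart was not tested.

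Dnajb9 encodes ERdj4, a J-domain co-chaperone of BiP that is also known to repress IRE1. Its brightest probe (chromosome 12, 45307313 to 45307372) read 4559, 4498, 4476 and 3923 in -F+S cultures, against 3504, 3464.5, 3927 and 3836 in normal cultures. The groups overlapped because -F+S replicate 4 lay below normal replicate 3, although the ratio was above 0 on each of the 4 arrays. The log2 ratio was 0.24 ± 0.081 (SE, n = 4 arrays; limma adjusted p 0.0228). The second brightest probe, 596 bases upstream, was at -0.14, below 0 on all 4 arrays, and was not called. In the scanner's LogRatio that probe was called lower (-0.35, adjusted p 0.00497), and the brightest was at 0.058 and not called. The dimmest, 120 bases upstream, was at 0.22 and was called higher. The gene's call was lost without replicate 1 (0.20, adjusted p 0.102) and without replicate 2 (0.20, adjusted p 0.107). It was also lost with the mean of all 3 probes (0.11, adjusted p 0.184). Of 14 settings, the reported one included, 7 called Dnajb9 higher.

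Pdia6 encodes P5, a disulfide isomerase that works with BiP and is known to dampen IRE1. Its brightest probe (chromosome 12, 17290963 to 17291022) read 95566, 106781, 97859 and 95146.5 in -F+S cultures, against 71808, 74439, 64793 and 63470.5 in normal cultures. The groups did not overlap, and the 4 ratios kept within 0.41 and 0.59. The mean log2 ratio was 0.53 ± 0.069 (SE, n = 4 arrays), which is 1.44-fold, with an adjusted p of 0.000113 in limma. Under median centring it was 0.15 and no longer called. The second probe, 360 bases nearer the 3′ end, gave 1.03 ± 0.075 (SE, n = 4 arrays; adjusted p 2.74e-06 over probes). A probe 14091 genomic bases upstream of that one gave 0.21 (adjusted p 0.0837) and the dimmest gave 0.074 (adjusted p 0.468), and on both the groups overlapped. The second probe was above both of these on all 4 arrays. The dimmest was matched to Pdia6 by symbol and the others through a RefSeq transcript, and whether it reads the same transcript was not checked.

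Pdia4 encodes ERp72, another disulfide isomerase, and has a single probe (chromosome 6, 47746516 to 47746575). It read 12499, 17399, 12351 and 14361 in -F+S cultures, against 11235, 11054, 11534.5 and 10776 in normal cultures. The normal cultures were close together and the -F+S cultures were all above them, with replicate 2 well above the rest. In log2 terms the ratio was 0.33 ± 0.098 (SE, n = 4 arrays; limma adjusted p 0.0142), and ran from 0.099 to 0.65 over the arrays. Without replicate 2 it was 0.22 (adjusted p 0.0766) and without replicate 4 it was 0.30 (adjusted p 0.0527), and in the scanner's LogRatio it was 0.19 (adjusted p 0.133). Of 13 settings, the reported one included, 8 called it higher.

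Creld2, an ER-resident protein known to be induced by ER stress and to act on disulfide bonds, was the only member lower in -F+S cultures. Its single probe (chromosome 15, 88656997 to 88657056) read 68933, 73116, 70331.5 and 62818 in -F+S cultures, against 83896, 89913, 92920.2 and 91846 in normal cultures. Every -F+S culture was below every normal culture. The log2 ratio was -0.38 ± 0.074 (SE, n = 4 arrays; limma adjusted p 0.00131), a level 1.30-fold lower in -F+S cultures, and the arrays lay between -0.55 and -0.28. It was -0.75 with median centring and -0.26 (adjusted p 0.117) in the scanner's processed signals.

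Herpud1 encodes a ubiquitin-like membrane protein that organises the degradation complex around the ligase HRD1. Its single probe (chromosome 8, 96919117 to 96919176) read 14424, 12672, 12613 and 14095 in -F+S cultures, against 5240.4, 5456, 4359.7 and 5472 in normal cultures. The lowest -F+S culture was more than 2-fold above the highest normal culture. The mean log2 ratio was 1.39 ± 0.076 (SE, n = 4 arrays), which is 2.63-fold, with an adjusted p of 3.28e-07 in limma. It was the member with the largest ratio, above the ratios of 93.5% of all genes tested. Its range over the alternatives tried was 1.23 to 1.45, and all of them called it higher.

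Xbp1 encodes the transcription factor that IRE1 activates by splicing. Its single probe (chromosome 11, 5424970 to 5425029) gives 1 value for the gene, with none for the spliced message apart. It read 15213, 17394, 15477.5 and 18057 in -F+S cultures, against 15799, 15466, 16860 and 13528 in normal cultures. The groups overlapped, arrays 2 and 4 were above 0 and arrays 1 and 3 below. In log2 terms the ratio was 0.10 ± 0.096 (SE, n = 4 arrays; limma adjusted p 0.364, 95% interval -0.11 to 0.32), and none of the alternatives tried called it.

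**Figure D2:**
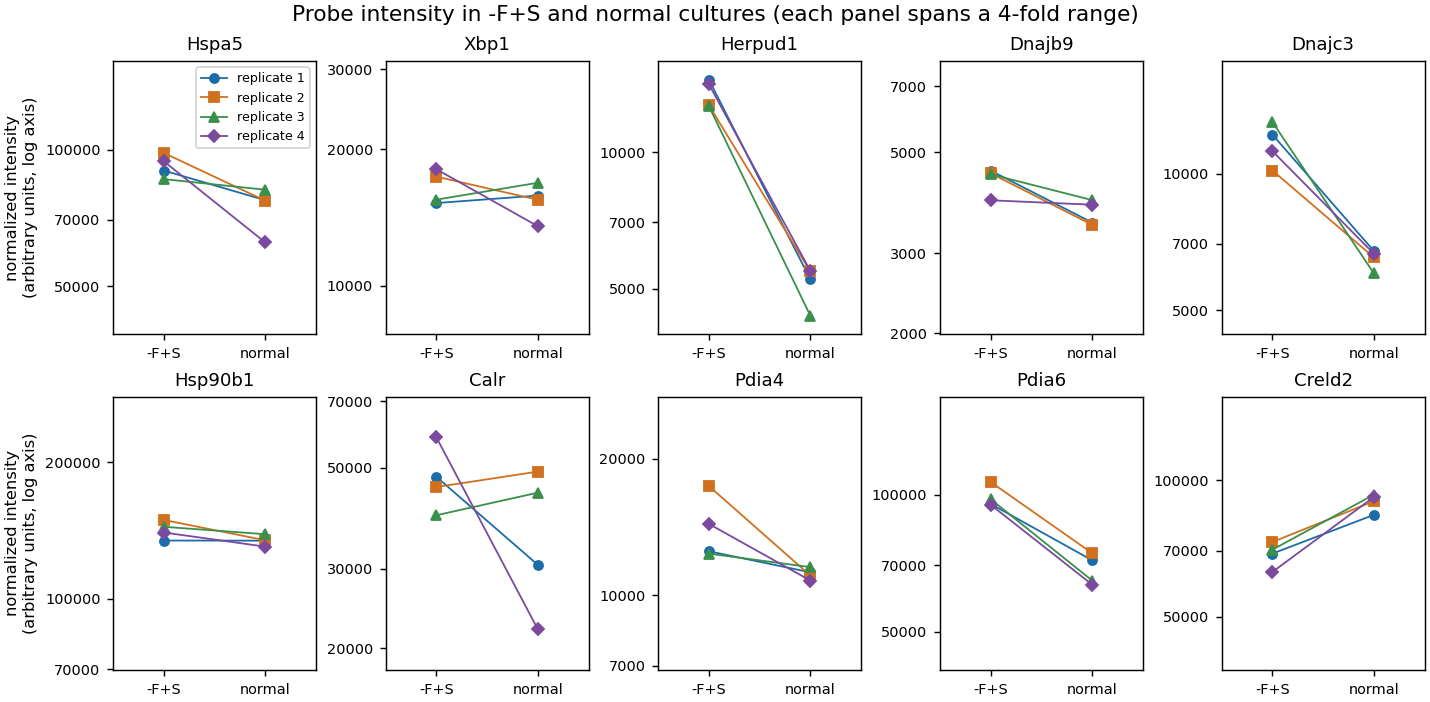
Normalized intensity (log axis, arbitrary units, each panel spanning the same fold range) of the brightest probe in -F+S cultures (left of each panel) and normal cultures (right), with a line for each of the 4 arrays. The -F+S end of every line is well above the normal end for Herpud1 and Dnajc3 and below it for Creld2, while lines run both ways for Calr and Xbp1; intensities are not comparable between panels.

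In 5 members every -F+S culture was above every normal culture (Hspa5, Herpud1, Dnajc3, Pdia4 and Pdia6), in 1, Creld2, every -F+S culture was below, and in 4 the groups overlapped. Over all genes 61.2% were separated, 34.1% upwards and 27.1% downwards. Normal replicate 4 had the lowest of the 4 normal values in 6 of the 10 members, against 22% of all genes. Without replicate 4, 4 members were called higher in place of 6.

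Different probes of 1 gene did not always give the same ratio. Of the 20 probes 13 were called higher, 1 lower and 6 not, where 37.3% of all kept probes were called higher and 29.1% lower (66.4% together). No member had probes called in opposite directions. Of the 5 members with several probes, Dnajc3 was higher on each of them, while Calr, Hsp90b1, Pdia6 and Dnajb9 each had at least 1 probe called higher and 1 not called. For Calr and Hsp90b1 the called probe was the dimmer and lay farther from the 3′ end.

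**Figure D3:**
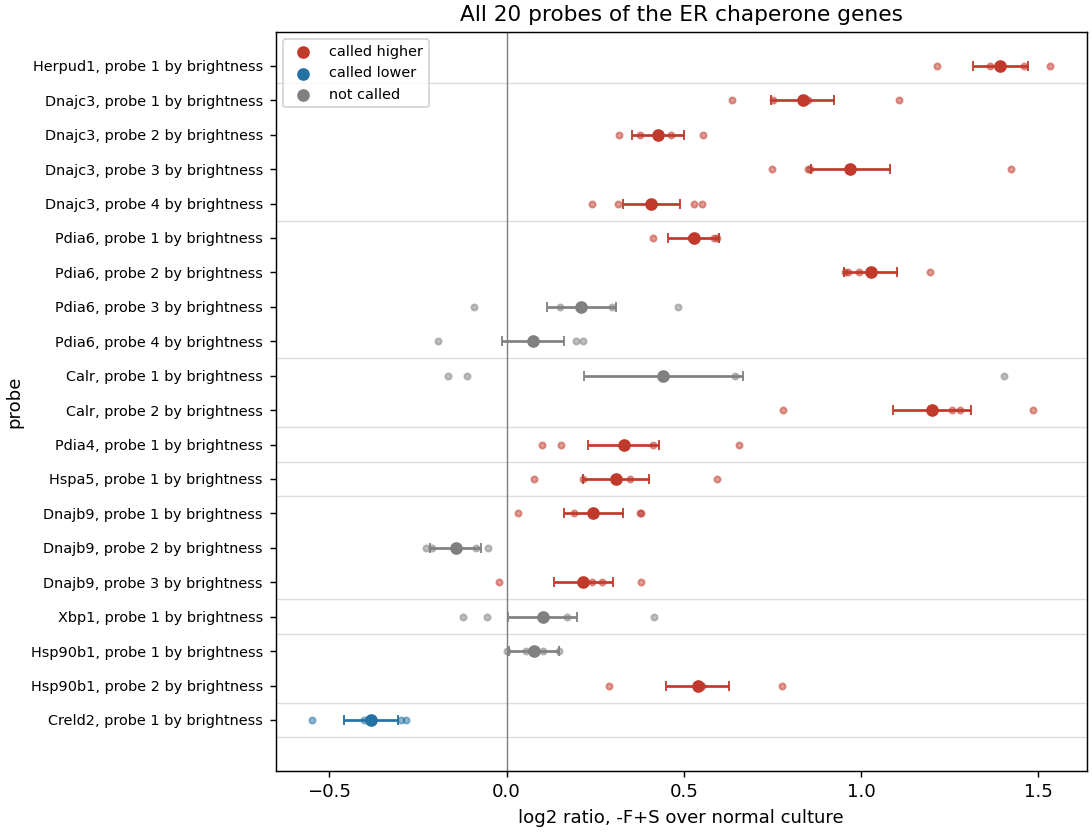
Log2 ratio of -F+S over normal culture (horizontal axis) for all 20 probes, grouped by gene and ordered by brightness within a gene; large points are means with SE bars, small points the 4 arrays. The 4 probes of Dnajc3 all lie above 0, while the probes of Pdia6 run from 0.074 to 1.03 and those of Calr from 0.44 to 1.20.

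The ratios of the brightest probes depended on how brightness trends were removed. The probes standing for Hsp90b1, Hspa5, Pdia6 and Creld2 are among the brightest on the array, with only 0.628% to 1.77% of kept probes brighter. With each array centred on its median in place of a loess curve, their log2 ratios became -0.42, -0.071, 0.15 and -0.75, against 0.077, 0.31, 0.53 and -0.38 with loess. Hsp90b1 was then called lower (adjusted p 0.0257). The ratios of Herpud1 (1.42) and Dnajc3 (0.86), with 22.9% and 22.2% of kept probes brighter than theirs, moved by less than 0.05. The direction of Hspa5 and of Hsp90b1 is thus not the same under both scalings, while the other 8 members kept theirs.

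**Figure D4:**
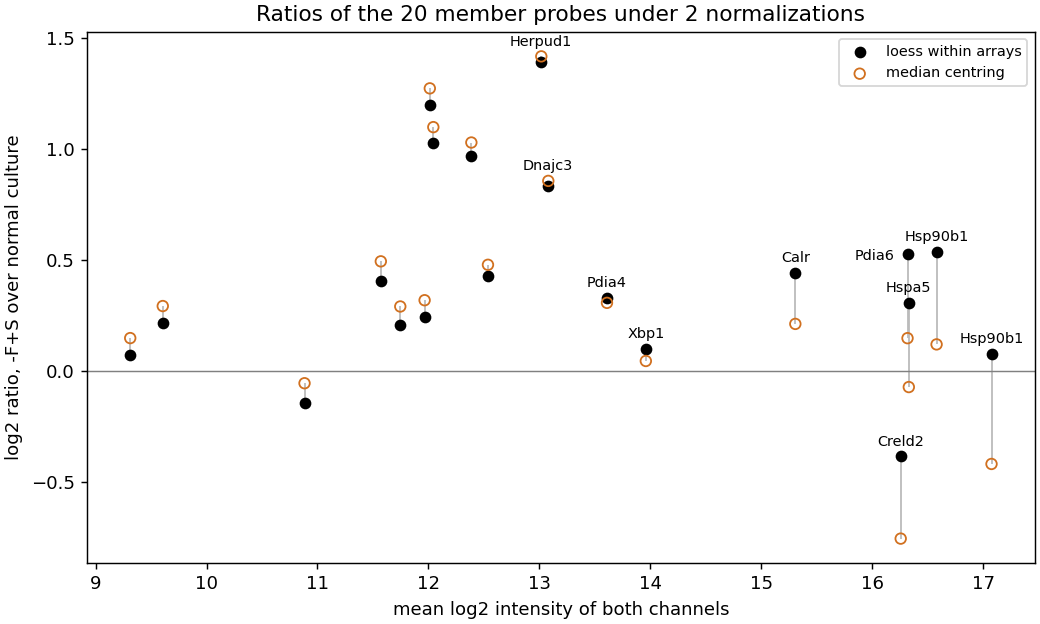
Log2 ratio of -F+S over normal culture (vertical axis) against mean log2 intensity of both channels (horizontal axis) for the 20 probes, after loess (filled points) and after median centring (open circles), with a line joining each pair. Below a log2 intensity of about 14 the pairs nearly coincide, while above 15 the open circles lie lower, and those of Hspa5 and of the brighter Hsp90b1 probe pass below 0.

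Beyond the members, other genes of ER protein folding were mostly higher in -F+S cultures. Of 35 chaperones and folding enzymes other than the members, 24 were called higher, 4 lower and 7 not, with a median log2 ratio of 0.41. Over all genes tested 37.5% were called higher and 30.9% lower, with a median of 0.023. The largest was Fkbp7, an ER prolyl isomerase, at 10938 to 12002 in -F+S cultures against 2637 to 2996 in normal cultures, a log2 ratio of 2.00 ± 0.078 (SE, n = 4 arrays; limma adjusted p 4.42e-08). Serpinh1, the collagen chaperone HSP47, had 1.54 and Qsox1, a sulfhydryl oxidase, 1.34. Among other lectin chaperones and disulfide isomerases, Canx (calnexin) was at 0.51 and Pdia3 (ERp57) at 0.79, both called higher, while P4hb, the disulfide isomerase PDI, was at 0.020 and not called. Manf, a secreted ER stress protein, was higher (0.58), and Sdf2l1, a partner of ERdj3, was not called (0.13). Hyou1, the large Hsp70 relative that serves BiP as exchange factor, fell to 18435 to 19431 in -F+S cultures, against 21986 to 24097 in normal cultures (log2 -0.29, adjusted p 0.00453). Mzb1 (-0.52), Cdnf (-0.31) and Uggt1 (-0.51), the glucosyltransferase that marks misfolded glycoproteins, were lower too, but a second probe of Uggt1 was higher (0.92). Mzb1 was dim, at 192 to 213 in -F+S cultures against 247 to 347 in normal cultures. Cdnf was dim as well, at 436.5 to 489 against 535 to 610.

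In ER-associated degradation, the pathway of Herpud1, 14 of 26 other genes were called higher, 4 lower and 8 not (median 0.26). The shares over all genes were 37.5% higher and 30.9% lower. The lectin Os9 had a log2 ratio of 1.17 and the deglycosylating enzyme Ngly1 one of 1.14. Syvn1, the ligase HRD1 with which Herpud1 works, was not called, at 36986 to 40072 in -F+S cultures against 37402 to 43812 in normal cultures (log2 -0.036). Its partner Sel1l was higher (0.73), but a second probe was at 0.27 and not called. Edem1, a lectin of the same pathway, was at 0.22 with an adjusted p of 0.0519. Derl3, a derlin of the ER membrane known as a target of the stress response, was lower by more than 2-fold, at 2890.0 to 3394 in -F+S cultures against 5842 to 7630.4 in normal cultures (log2 -1.12). Nploc4, a cofactor of the p97 ATPase, was at -0.60 and the mannosidase-like Edem2 at -0.43, both lower.

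Of 15 sensors and transcription factors of the response, 5 were called higher, 3 lower and 7 not, with a median log2 ratio of 0.080. Among all genes 37.5% were called higher and 30.9% lower, so calls in both directions are not particular to this list. Atf6 was higher (0.70), Ern1, which encodes IRE1, was lower (-0.36), and Eif2ak3, which encodes PERK, was not called (-0.19, adjusted p 0.1). The factors Creb3l2 (1.91) and Creb3 (1.76), related to ATF6 and cut in the Golgi in the same way, were the largest rises, while Atf6b (-0.48) and Wfs1 (-0.29), a calcium regulator of the ER membrane, were lower. Of 12 genes of the PERK and ATF4 arm, 8 were called higher, 2 lower and 2 not, with a median of 0.55. Atf4 was at 0.70 and its target Ddit3, which encodes CHOP, at 0.95, both called higher. Nupr1 (1.29), a stress-induced chromatin protein, and Vldlr (1.35), a lipoprotein receptor, had the largest ratios there, and the phosphatase subunits Ppp1r15a (-0.40) and Ppp1r15b (-0.28), which reverse the action of PERK, were lower.

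Of 33 genes of translocation into the ER, signal peptidase and N-glycosylation, 17 were called higher, 8 lower and 8 not (median 0.18). Beside this and the next list, 37.5% of all genes were called higher and 30.9% lower. Ssr3, a translocon subunit, had a log2 ratio of 1.29, the signal peptidase subunit Spcs1 0.91 and the oligosaccharyl transferase subunit Stt3a 0.85. Other subunits of the same transferase, Rpn1 (-0.67) and Ddost (-0.39), were lower. The signal recognition particle receptor subunit Srpr was also lower (-0.48), but its second probe was higher (0.49). Of 24 KDEL receptors and vesicle coat genes, which carry cargo between ER and Golgi and return ER chaperones, 17 were called higher, 1 lower and 6 not (median 0.45). The receptors Kdelr2 (1.55) and Kdelr3 (1.39), which retrieve chaperones such as BiP, were higher, though a second probe of Kdelr2 was at 0.097 and not called. The coat proteins Sec24d (1.66) and Sec23a (1.64) had the largest ratios, and the cargo receptor Tmed2 was lower (-0.27).

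Some of these calls were not made under other settings. Under median centring Canx had a log2 ratio of 0.24 and Manf one of 0.37, both smaller than with loess and not called. Cdnf (-0.25), Edem2 (-0.34), Ern1 (-0.27), Wfs1 (-0.27), Ppp1r15a (-0.35), Ppp1r15b (-0.29) and Srpr (-0.46) stayed near their ratios with loess there but did not pass the test. P4hb was called lower (-0.44), and 10 of the KDEL receptor and coat genes were called higher in place of 17. The sensors and transcription factors then had 3 called higher and 1 lower. Eif2ak3 was called lower in the scanner's LogRatio (-0.37, adjusted p 0.0116), in the processed signals (-0.33, adjusted p 0.0468), with the mean of its probes (-0.20, adjusted p 0.0297) and without replicate 2 (-0.30, adjusted p 0.0223). Tmed2 was not called on its second probe (-0.11), with the mean of its probes (-0.14), in the LogRatio (-0.17) or in the processed signals (-0.12), nor without replicate 1 (-0.24) or replicate 4 (-0.20). Rpn1 was not called on its second probe (-0.23) or with the mean of its probes (-0.095).

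**Figure D5:**
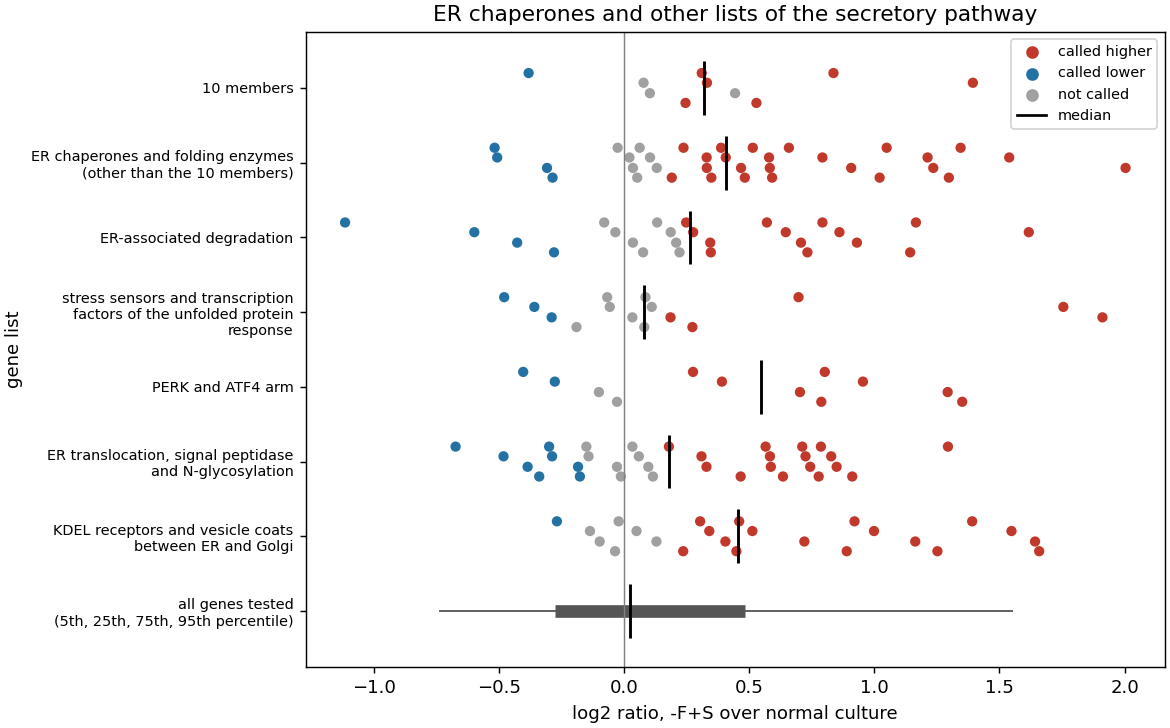
Log2 ratio of -F+S over normal culture (horizontal axis) for each gene of the 10 members and of 6 other lists of the secretory pathway, with a bar at each median and all genes tested at the bottom (thin line, 5th to 95th percentile; thick line, 25th to 75th). Medians run from 0.080 for sensors and transcription factors to 0.55 for the PERK and ATF4 arm, with the members at 0.32 and all genes at 0.023.

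Of 22 tested genes with an ERSE, members included, 7 were called higher and 6 lower, where 37.5% and 30.9% of all genes were, and their median log2 ratio was 0.064. Of 9 with an ERSE-II 4 were called higher and 1 lower (median 0.10), and of 125 with the core TGACGTGG 59 were called higher and 28 lower (median 0.15). The 12372 tested genes with a promoter window had a median of 0.023. Of the 6 members with an ERSE, Hspa5, Dnajc3 and Pdia6 were called higher, Hsp90b1 and Calr were not called on their brightest probe, and Creld2 was lower. Herpud1, the member with the ERSE-II, had the largest ratio. Of the members with none of the 3 motifs in their windows, Dnajb9 and Pdia4 were called higher and Xbp1 was not called. In the other lists an ERSE was found for Canx, Ero1b, Syvn1 and Derl3.

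The cell type markers were read on the same arrays as the members. Their calls stand beside 37.5% of all genes called higher and 30.9% called lower. Those of spermatogonia were well above background in both channels for all 15 that were measured, and no probe was matched to Zbtb16. Of the 15, 1 was called higher and 9 lower (median log2 ratio -0.33). Their summed intensity was 446136 to 489111 in -F+S cultures, against 492585 to 534251 in normal cultures. The marker called higher was Thy1, at 144892.5 to 149743 against 53113 to 59735, which holds up the -F+S sum. Of 12 Sertoli cell markers 11 were called higher (median 2.00), and their summed intensity was 440267 to 488822 in -F+S cultures, against 152370.0 to 172919 in normal cultures. Most of that sum came from Ctsl, at 229653 to 276564 in -F+S cultures against 116749 to 140184 in normal cultures. Of 12 markers of fibroblasts and feeder cells 11 were called higher (median 1.43; summed 1474743 to 1574348 in -F+S cultures, against 546927 to 628274 in normal cultures). Of 9 Leydig and peritubular markers 8 were called higher and 1 lower (median 1.99), and no probe was matched to Insl3. The summed intensity of the 9 was 244120.0 to 293937 in -F+S cultures, against 71393 to 76669 in normal cultures. Of 10 leukocyte markers 1 was called higher and 9 lower (median -0.88). Their summed intensity was 52620.0 to 65725 in -F+S cultures, against 124969 to 148997 in normal cultures. Most of it came from Lyz2, at 42764 to 55447 in -F+S cultures against 101663 to 124947 in normal cultures. Of 8 endothelial markers 2 were called higher and 5 lower (median -0.28; summed 11227 to 14401 in -F+S cultures, against 13582 to 15982 in normal cultures). No marker with a kept value was at background on all arrays of a group, and Fshr in normal cultures was the least detected, on 1 of 4 arrays.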

How the data were processed

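Spots were read with Agilent Feature Extraction 10.5.1.1 (submitters' processing notes), and the authors deposited spot intensity values on a linear scale together with LogRatio, which is log10 of red over green per the file headers. The authors' deposited series matrix holds log2 values that equalled log2 of green over red processed signal within 0.001 for 100% of 40929 probes printed on a single spot, with column medians of -0.26, 0.012, 0.11 and -0.058; it is therefore -F+S over normal culture without centring. No step after scanning is given in the sources used here.

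Each of the 4 arrays had 45018 spots, 1639 of them control spots and none saturated, and all 4 arrays lay on 1 slide and were read in 1 scan. Background was corrected with normexp (offset 50), log2 green over red was normalized by loess within each array with control spots at weight 0, and 141 to 171 spots marked as outliers were left out. A probe was kept where 3 or more arrays had it well above background in one and the same channel (25532 to 28495 probes were above it in a channel). The brightest kept probe stood for a gene. Names came through RefSeq accessions (25097 probes) and symbols or synonyms (7973), and 8104 probes kept the name of the file. A two-sided limma fit (limma 3.58.1, lmFit and eBayes, in R 4.3.3 with the data.table package, version 1.17.8) set the mean ratio against 0, with 1 value per array, so that both cultures of an array are compared with each other; SE and 95% intervals are those of this fit. Over single values, a sign permutation of 4 ratios could not go below p = 0.125. Channel intensities follow loess and Aquantile scaling, and the number of arrays limits the precision. Such ratios do not measure a shift common to the whole array. Gene ratios of different arrays correlated with an r of 0.907 to 0.948 across genes, which are not independent replicates. The procedure was tested on simulated data.

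Motifs were searched with Python 3.11.15 in windows from 250 bases before to 50 after each start, and plots were drawn with matplotlib 3.10.9. The members, the gene and marker lists and the tests were chosen with earlier results of these data known. Genes named outside the members are, for each list, the 3 largest rises and falls among called genes whose ratio kept its sign on every array, and 16 genes always given; 1 gene that this rule takes is not reported here. Alternatives covered the background correction, the normalization, the filter on dim probes, the choice of probe, the variance model, the pairing by array and the removal of each replicate.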

Additional observations from a re-analysis of the deposited data

Results flagged for a closer look

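Over the member probes, 60 groups of 4 values (ratios and the intensities of each condition) were examined for a sample far from the others, and 4 had one, where chance gives about 1 in 20. Dnajb9's brightest probe had a log2 intensity of 11.94 in -F+S replicate 4, against 12.13 to 12.15 in the other -F+S cultures. One probe of Dnajc3 had 12.23 in normal replicate 3, against 12.34 to 12.36 in the other normal cultures. A further probe of Dnajc3 had a log2 ratio of 1.42 on array 3, against 0.75 to 0.86 on the other arrays. The second probe of Pdia6 had a log2 ratio of 1.19 on array 4, against 0.95 to 1.00 on the other arrays.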

How the results depend on the processing

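The counts of 6 members higher and 1 lower were the same in the fit without pairing by array (no replicate block, channel values 4 against 4), where 13 probes were higher and 1 lower; it moved no other count by over 1.5 times. Median centring in place of loess called 2 members higher and 2 lower, and 7 probes higher and 2 lower; of the members not called there, Dnajb9 (0.32, adjusted p 0.0867) and Pdia4 (0.31, adjusted p 0.0877) had ratios near or above those with loess, while Hspa5 and Pdia6 (0.15) had smaller ones. With the scanner's LogRatio 2 probes were lower, and with median-centred processed signals 0 members and 0 probes were lower. The second brightest probe, which 5 members have, gave 4 higher and 0 lower with a median of 0.54, and 53 higher and 7 lower of 84 genes over the 6 lists, against 85 and 22 of 145. Leaving out 1 replicate at a time gave 4 to 7 members higher and 1 lower, a median of 0.26 to 0.40, 9 to 14 probes higher and 1 lower, and 80 to 83 list genes higher and 17 to 20 lower. Quantile scaling separated 5 members in place of 6. The scanner's LogRatio moved the median of all genes by -0.15 and called 5598 genes higher and 7854 lower (41.6% of calls higher, 54.9% with loess).

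Directions turned for these values. With median centring Hspa5 was at -0.071, Hsp90b1 at -0.42 and P4hb at -0.44. Xbp1 was at -0.080 with LogRatio, -0.033 in the processed signals, and -0.0028 to 0.18 when 1 replicate was left out. The dimmest Pdia6 probe was at -0.12 with LogRatio and -0.076 in the processed signals, and Sdf2l1 at -0.057 and -0.0094. The second probe gave -0.14 for Dnajb9, 0.92 for Uggt1, 0.067 for Syvn1, -0.061 for Edem1 and 0.49 for Srpr. The mean over probes gave 0.21 for Uggt1 and 0.015 for Syvn1, and P4hb was at -0.15 to 0.14 when 1 replicate was left out. The cause was not tested. Signal over background did not limit the members, whose probes were well above background on all 4 arrays in both channels.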
